A study of Mus musculus with 9 samples.

Results

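The genes described here are p53 itself, its feedback regulators and a group of its growth-arrest targets, namely *Trp53*, *Mdm2*, *Mdm4*, *Ppm1d*, *Gtse1*, *Ccng1*, *Phlda3*, *Btg2*, *Trp53cor1* and *Pvt1*. They were taken by symbol from gene tables of newborn mouse lenses and make up 10 of the 47729 genes listed. The genes were chosen by their known role and partly by the rise of p53 targets in counts from one of the lines, *Le-Cre*, so their values in comparisons with *Le-Cre* are given below as a description without a test. RNA-Seq was performed on whole lenses collected at P0 from wild type *FVB/N* mice, hemizygous *P0-3.9GFPCre* mice and hemizygous *Le-Cre* mice, all on the *FVB/N* background. In both transgenic lines a *Pax6* P0 promoter fragment drives CRE recombinase, with GFP made as well, in the lens placode and the neighbouring surface ectoderm. No floxed target gene is named in the labels, so the lines were compared for differences that go with carrying the transgene. The paper obtained hemizygous mice by crossing homozygous transgenic mice, whose pups all carry the transgene, so the *FVB/N* pups came from other litters. An effect of the transgene therefore cannot be told apart from that of litter, sex of the pups, source of the mice or insertion site. Each line had 3 pools, each of 6 lenses from 3 mice, so a single animal cannot be followed. A whole lens holds an epithelial sheet and a large mass of fiber cells, and a change in the proportion of these cells cannot be told apart from a change in RNA per cell.

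p53 is a transcription factor that is made continually and normally destroyed almost as fast. The ubiquitin ligase MDM2 marks p53 for degradation, and its relative MDM4 masks the activation domain of p53. Because p53 activates *Mdm2*, a rise in p53 activity also raises its own inhibitor. The control of p53 in cells acts mainly on the protein, through phosphorylation and ubiquitination, which RNA-Seq does not measure. The targets of p53 include inhibitors of the cell cycle, DNA repair genes and cell death genes, and in the lens p53 is known for the death of fiber cells that fail to leave the cell cycle.

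The quantifier RSEM estimated how many reads came from each gene, and these expected counts summed to totals that ranged from 20670968 to 28098059 per pool (median 23299676), and crystallin genes took 39.1% to 43.0% of them. The 9 lens markers, such as *Cryaa*, *Mip* and *Foxe3*, were above 0 in all 9 pools. The summed levels of blood, vessel, macrophage, retina and cornea markers overlapped between the lines, and the cornea and skin markers *Krt12* and *Krt14* were at 0 in every pool. The pools differed in counts from 4 Y-linked genes, which summed to 126 to 194 CPM (counts scaled to a common library size) in *FVB/N*, 1.66 to 135 CPM in *P0-3.9GFPCre* and 0.633 to 71.9 CPM in *Le-Cre*, so that this share moved with the line. Males alone carry these genes, so the sex of the pups differed between pools and partly went with the line. Nothing in the labels says that the pools of a line came from separate litters, so errors and p-values measure the spread between these pools.

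The 10 genes lie on 5 chromosomes of GRCm38. *Trp53* (chr11:69580359-69591873), *Ppm1d* (chr11:85311244-85347066) and *Ccng1* (chr11:40748552-40755311) share chromosome 11, and *Mdm4* (chr1:132959484-133030561), *Btg2* (chr1:134075170-134079120) and *Phlda3* (chr1:135766119-135769136) share chromosome 1. *Mdm2* is at chr10:117688875-117710758 and *Gtse1* at chr15:85859745-85876573. The remaining pair are long non-coding RNA genes, *Trp53cor1* at chr17:29057430-29079179 and *Pvt1* at chr15:62037986-62378096. The gap between *Trp53cor1* and *Cdkn1a*, the gene of the p21 inhibitor of cyclin-dependent kinases, is 11.8 kb, and the gap between *Pvt1* and *Myc* is 47.6 kb.

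The 250 bases before and the 50 bases after the start sites were searched for the 10-base p53 half-site. RefSeq promoters of GRCm38.p6 held 10 windows of 300 bases for 8 of the 10 genes, with none for *Trp53cor1* and *Pvt1*. The upstream stretches below are shown 5′ to 3′ on the strand of the gene for 4 genes with a p53 half-site in the stretch and for *Phlda3* and *Btg2*, which had none. Capitals mark the p53 half-site and the cyclic AMP response element TGACGTCA.
*Trp53* (chr11:69580109-69580358, plus strand): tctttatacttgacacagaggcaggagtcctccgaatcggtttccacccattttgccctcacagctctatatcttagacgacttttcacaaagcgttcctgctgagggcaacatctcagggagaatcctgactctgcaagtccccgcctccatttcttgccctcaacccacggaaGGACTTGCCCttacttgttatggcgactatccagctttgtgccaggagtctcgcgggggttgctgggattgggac
*Mdm2* (chr10:117710759-117711008, minus strand): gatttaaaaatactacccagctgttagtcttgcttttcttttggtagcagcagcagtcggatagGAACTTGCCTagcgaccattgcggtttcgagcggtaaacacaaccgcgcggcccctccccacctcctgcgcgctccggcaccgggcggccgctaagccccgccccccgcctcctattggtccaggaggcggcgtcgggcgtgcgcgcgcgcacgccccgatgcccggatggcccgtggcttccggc
*Ppm1d* (chr11:85311004-85311253, plus strand): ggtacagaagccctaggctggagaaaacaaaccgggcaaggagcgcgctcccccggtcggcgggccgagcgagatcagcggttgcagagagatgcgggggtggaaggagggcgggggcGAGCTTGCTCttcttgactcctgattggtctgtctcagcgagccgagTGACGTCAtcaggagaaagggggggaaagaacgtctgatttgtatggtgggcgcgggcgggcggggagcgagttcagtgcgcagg
*Ccng1* (chr11:40755287-40755536, minus strand): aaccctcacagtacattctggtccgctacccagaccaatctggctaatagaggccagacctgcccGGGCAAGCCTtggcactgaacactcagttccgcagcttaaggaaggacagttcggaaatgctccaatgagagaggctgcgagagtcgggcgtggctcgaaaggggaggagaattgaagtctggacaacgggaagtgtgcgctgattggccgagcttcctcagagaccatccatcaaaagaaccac
*Phlda3* (chr1:135765835-135766084, plus strand): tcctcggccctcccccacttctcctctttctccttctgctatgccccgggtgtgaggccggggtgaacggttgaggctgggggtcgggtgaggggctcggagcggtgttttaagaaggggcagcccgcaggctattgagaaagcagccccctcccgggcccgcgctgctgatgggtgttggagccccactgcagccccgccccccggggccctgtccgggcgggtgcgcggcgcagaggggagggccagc
*Btg2* (chr1:134079156-134079405, minus strand): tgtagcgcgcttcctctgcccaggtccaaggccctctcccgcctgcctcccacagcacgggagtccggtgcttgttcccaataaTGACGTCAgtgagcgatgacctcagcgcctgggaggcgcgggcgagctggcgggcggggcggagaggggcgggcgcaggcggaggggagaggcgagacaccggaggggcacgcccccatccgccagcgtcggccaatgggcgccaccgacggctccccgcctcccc

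A p53 half-site was present in the windows of *Trp53*, *Mdm2*, *Ppm1d*, *Ccng1* and *Gtse1*, 5 of 8 genes, against 8.36% of the 32851 RefSeq windows of the same length. It read GGACTTGCCC in *Trp53* (first base at −75 from the start site), GAACTTGCCT in *Mdm2* (at −186), GAGCTTGCTC in *Ppm1d* (at −132) and GGGCAAGCCT in *Ccng1* (at −185). p53 binds DNA as a tetramer through a pair of such half-sites. Abutting half-sites with at most 2 mismatches in all occurred in *Ccng1*, as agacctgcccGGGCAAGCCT from −195 to −176, and at the second annotated start of *Gtse1*, as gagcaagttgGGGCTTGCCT. Each had 1 mismatch, and 0.42% of all windows held such a stretch. TGACGTCA, searched on both strands, was in *Btg2* and *Ppm1d*, 2 of 8 genes, against 1.79% of windows. CCAAT on either strand was found in 6 of 8 genes and 37.4% of windows, whereas the cell cycle element TTTGAA, also on either strand, and the CArG box of serum response factor were in 0 of 8 genes, against 17.9% and 1.63% of windows. The known p53 sites of *Mdm2* lie at its internal promoter, outside the window, and the matches describe letters only.

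All 10 genes were measured in every pool, and all 10 passed the filter on low counts. Levels between genes were compared as TPM, which is scaled by transcript length. In *FVB/N* lenses *Ccng1* (cyclin G1, a p53 target that acts with a phosphatase on MDM2) was the highest, at 53.4 ± 4.95 TPM (SD, n = 3 pools). It was followed by *Mdm4* at 21.2 ± 2.19, *Mdm2* at 18.2 ± 0.122, *Btg2* at 6.84 ± 0.874, *Trp53* at 6.06 ± 0.291 and *Ppm1d* at 3.66 ± 0.396 TPM. *Phlda3* at 2.14 ± 0.196, *Gtse1* at 1.23 ± 0.170, *Pvt1* at 0.48 ± 0.0557 and *Trp53cor1* at 0.22 ± 0.106 TPM were the lowest. Among neighbours in this order, the pools overlapped between *Btg2* and *Trp53* and between no other pair. The inhibitors *Mdm4* and *Mdm2* were thus each at a higher TPM than *Trp53* in all 9 pools.

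The order was nearly the same in the other lines. In *P0-3.9GFPCre* lenses each gene had the rank it had in *FVB/N*, with overlap between *Btg2* and *Trp53*, *Phlda3* and *Gtse1*, and *Gtse1* and *Pvt1*. In *Le-Cre* lenses *Phlda3* stood in the sixth place and *Ppm1d* in the seventh, and *Mdm2* and *Mdm4* had almost the same mean, 21.2433 and 21.2 TPM. Overlap between neighbours in *Le-Cre* was found for *Mdm2* and *Mdm4*, *Btg2* and *Trp53*, *Trp53* and *Phlda3*, *Gtse1* and *Pvt1*, and *Pvt1* and *Trp53cor1*.

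**Figure D1:**
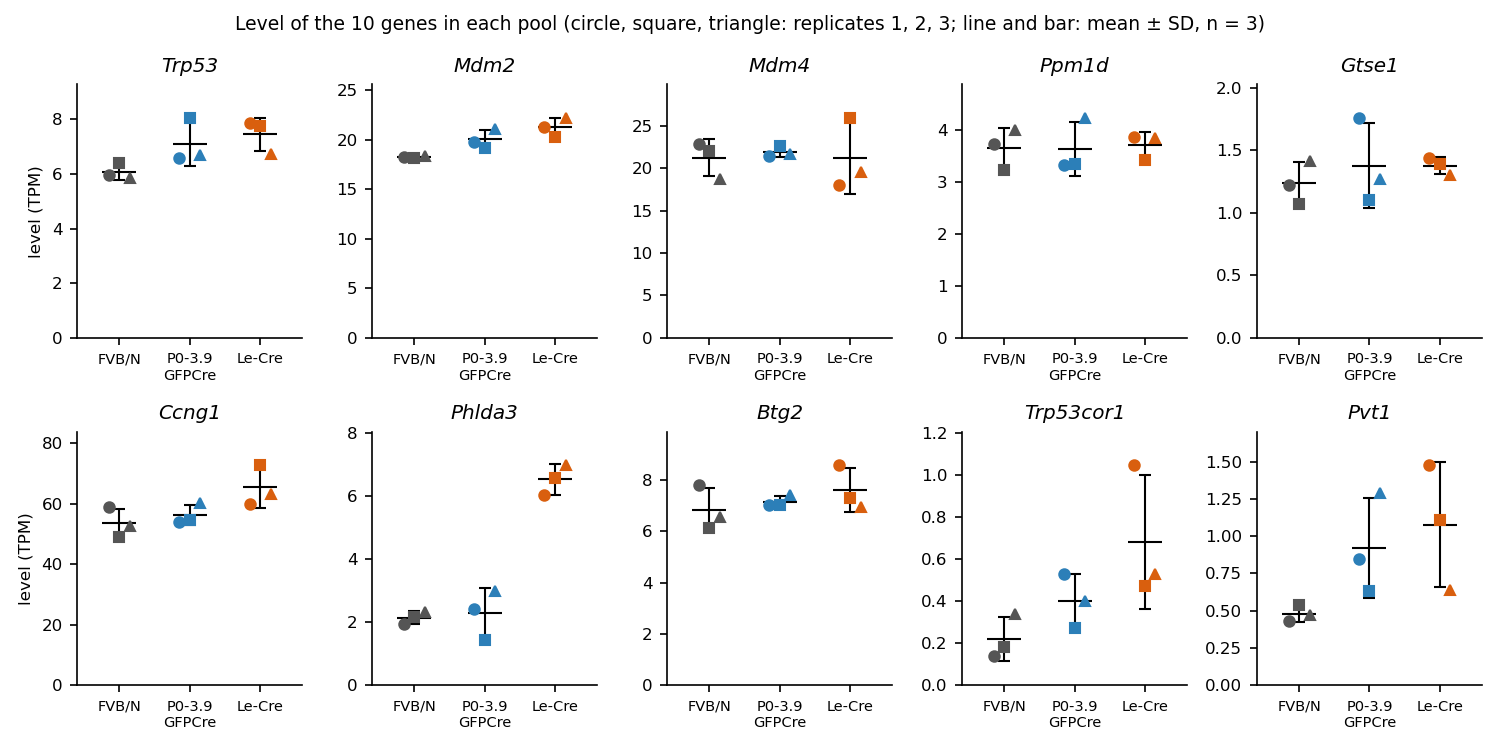
Level in TPM (y axis, linear, from 0) of the 10 genes in the 3 pools of each line, with the mean and SD of each line as a line and bar (n = 3). *Phlda3* is the gene whose *Le-Cre* pools, 6.02 to 6.98 TPM, lie farthest from the pools of both other lines, 1.42 to 2.99 TPM.

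*Trp53*, which encodes p53, was measured at 5.95, 6.39 and 5.84 TPM in *FVB/N* replicates 1 to 3. The *P0-3.9GFPCre* pools had 6.60, 8.07 and 6.68 TPM, and the *Le-Cre* pools 7.86, 7.75 and 6.74 TPM. All pools of both transgenic lines were above all *FVB/N* pools on this scale. In CPM scaled by edgeR's TMM method, which is not per length, the *P0-3.9GFPCre* pools (11.4 to 14.7 CPM) overlapped those of *FVB/N* (11.3 to 11.5 CPM). For *Trp53* the log2 fold change in *P0-3.9GFPCre* was 0.17 ± 0.11 (standard error; adjusted p = 0.81 by edgeR's quasi-likelihood test), with an interval of 2 standard errors from −0.04 to 0.38. For *Le-Cre* against *FVB/N* it was 0.26 ± 0.11.

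*Mdm2*, the ligase that p53 itself switches on, was tightly held in *FVB/N*, at 18.2, 18.1 and 18.4 TPM. *P0-3.9GFPCre* lenses had 19.8, 19.2 and 21.1 TPM and *Le-Cre* lenses 21.2, 20.3 and 22.2 TPM. The *FVB/N* pools were the lowest on this scale, and the transgenic lines overlapped. In CPM, *FVB/N* (37.5 to 40.8) and *P0-3.9GFPCre* (38.3 to 39.4) overlapped and the *Le-Cre* pools (40.9 to 46.1) were above both. The change of *Mdm2* was 0.01 ± 0.07 in *P0-3.9GFPCre* on the log2 scale (edgeR adjusted p = 0.993, interval −0.13 to 0.15) and 0.14 ± 0.07 in *Le-Cre*. Over all genes of at least 1 CPM, the median log2 ratio of TPM between *P0-3.9GFPCre* and *FVB/N* was 0.07, and the transcript length that RSEM used for *Mdm2* ranged from 2067 to 2343 bases.

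*Mdm4*, the relative of *Mdm2* that holds p53 inactive, had 22.9, 22.1 and 18.8 TPM in *FVB/N*, 21.4, 22.6 and 21.7 TPM in *P0-3.9GFPCre* and 18.1, 25.98 and 19.5 TPM in *Le-Cre*. The lines overlapped, and the *Le-Cre* pools spread most, with a coefficient of variation of 19.8%. On the CPM scale the log2 fold change was 0.18 ± 0.09 in *P0-3.9GFPCre* (edgeR adjusted p = 0.763, interval −0.01 to 0.37), which was the smallest adjusted p of the 10 genes. In *Le-Cre* against *FVB/N* it was 0.15 ± 0.09. CPM is not per length, and the RSEM length of *Mdm4* was greater in both transgenic lines, as given below. In TPM the ratio of means to *FVB/N* was 1.03 in *P0-3.9GFPCre* and 0.998 in *Le-Cre*. Whether the length accounts for the change in CPM was not tested.

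*Ppm1d*, which encodes the WIP1 phosphatase that removes activating phosphates from p53 and its kinases, had pools that overlapped between all lines. It was measured at 3.74, 3.23 and 4.01 TPM in *FVB/N*, 3.33, 3.35 and 4.25 TPM in *P0-3.9GFPCre* and 3.88, 3.44 and 3.85 TPM in *Le-Cre*. *Ppm1d* had a log2 fold change of −0.14 ± 0.18 in *P0-3.9GFPCre* (edgeR adjusted p = 0.908, interval −0.51 to 0.22) and −0.01 ± 0.18 in *Le-Cre*. With the Y-linked counts in the fit these were −0.40 and −0.45. *Gtse1*, whose product binds p53 in the G2 phase and moves it out of the nucleus, had 1.22, 1.07 and 1.41 TPM in *FVB/N*, 1.76, 1.10 and 1.27 TPM in *P0-3.9GFPCre* and 1.44, 1.39 and 1.3 TPM in *Le-Cre*. All lines overlapped, and the count of *Gtse1* ranged from 56 to 102 per pool. The fold change of *Gtse1* on the log2 scale was 0.08 ± 0.21 in *P0-3.9GFPCre* (edgeR adjusted p = 0.965, interval −0.35 to 0.50) and 0.12 ± 0.21 in *Le-Cre*.

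Of the growth-arrest targets, *Ccng1* and *Phlda3* were higher in every *Le-Cre* pool than in every other pool on the CPM scale. *Ccng1* had 58.8, 49.1 and 52.4 TPM in *FVB/N*, 53.8, 54.7 and 60.1 TPM in *P0-3.9GFPCre* and 59.9, 72.8 and 63.2 TPM in *Le-Cre*. In TPM the *Le-Cre* pools lay above those of *FVB/N* but overlapped those of *P0-3.9GFPCre*, where replicate 3 was just over *Le-Cre* replicate 1. In CPM the *Le-Cre* pools (195 to 222) were above *FVB/N* (158 to 191) and *P0-3.9GFPCre* (165 to 193). On the log2 scale the fold change of *Ccng1* was 0.01 ± 0.09 in *P0-3.9GFPCre* (edgeR adjusted p = 0.992, interval −0.16 to 0.18) and 0.25 ± 0.09 in *Le-Cre*.

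*Phlda3*, a small pleckstrin homology protein that competes with AKT for membrane lipids and so restrains growth signals, had the clearest separation of the 10 genes. Its level was 1.93, 2.16 and 2.32 TPM in *FVB/N*, 2.40, 1.42 and 2.99 TPM in *P0-3.9GFPCre* and 6.02, 6.55 and 6.98 TPM in *Le-Cre*. The lowest *Le-Cre* pool was above the highest pool of either other line. The expected counts behind these values were 38, 44 and 56, then 45, 31 and 77, then 160, 116 and 118. Relative to the other lines, the log2 fold change of *Phlda3* in *Le-Cre* was 1.47 ± 0.30 against *FVB/N* and 1.19 ± 0.30 against *P0-3.9GFPCre*. It was 0.28 ± 0.31 in *P0-3.9GFPCre* against *FVB/N* (edgeR adjusted p = 0.897, interval −0.35 to 0.90). When counts on the Y-linked genes entered the fit, the value for *Le-Cre* against *FVB/N* was 0.92. *P0-3.9GFPCre* replicate 3 was the highest of its line, and without it the change in *P0-3.9GFPCre* was −0.15 and that between *Le-Cre* and *P0-3.9GFPCre* was 1.63.

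*Btg2*, an antiproliferative gene that is both a p53 target and an immediate early gene, did not separate the lines. Its pools had 7.81, 6.12 and 6.58 TPM in *FVB/N*, 7.02, 7.02 and 7.42 TPM in *P0-3.9GFPCre* and 8.60, 7.30 and 6.95 TPM in *Le-Cre*. *Btg2* had a log2 fold change of −0.01 ± 0.12 in *P0-3.9GFPCre* (edgeR adjusted p = 0.997, interval −0.24 to 0.23) and 0.12 ± 0.12 in *Le-Cre*.

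The non-coding genes were the lowest, and in *Le-Cre* the most variable. *Trp53cor1*, known as lincRNA-p21, is transcribed next to *Cdkn1a* and is induced by p53. It had 10, 11 and 24 expected counts in *FVB/N* (0.14, 0.18 and 0.34 TPM), 33, 15 and 24 in *P0-3.9GFPCre* (0.53, 0.27 and 0.40 TPM) and 81, 31 and 33 in *Le-Cre* (1.05, 0.47 and 0.53 TPM). Every *Le-Cre* pool was above every *FVB/N* pool, *Le-Cre* replicate 1 stood apart from the other pools of its line, and *P0-3.9GFPCre* overlapped both lines. Compared with *FVB/N* the change of *Trp53cor1* on the log2 scale was 0.79 ± 0.49 in *P0-3.9GFPCre* (edgeR adjusted p = 0.81, interval −0.20 to 1.77) and 1.61 ± 0.48 in *Le-Cre*. The *Le-Cre* value was 1.14 without *Le-Cre* replicate 1, 2.13 without *FVB/N* replicate 3 and 1.12 with the Y-linked counts in the fit. Of its exonic bases, 44.1% lie opposite the antisense gene *AC167363.1*, which is not among the genes listed. Whether the authors counted by strand is not given in the sources used here, so reads of *AC167363.1* may be counted as *Trp53cor1*.

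*Pvt1*, a host of microRNAs beside *Myc* with a p53-responsive start, had 0.43, 0.54 and 0.47 TPM in *FVB/N*, 0.85, 0.63 and 1.29 TPM in *P0-3.9GFPCre* and 1.48, 1.11 and 0.64 TPM in *Le-Cre*. Both transgenic lines were above *FVB/N* in every pool on the TPM scale. In CPM, *P0-3.9GFPCre* (1.02 to 1.89) overlapped *FVB/N* (0.696 to 1.38), while the *Le-Cre* pools (1.45 to 1.96) were above *FVB/N*. For *Pvt1* the fold change on the log2 scale was 0.38 ± 0.36 in *P0-3.9GFPCre* (edgeR adjusted p = 0.873, interval −0.34 to 1.11) and 0.67 ± 0.36 in *Le-Cre*, or 0.20 and 0.39 with the Y-linked counts in the fit. The RSEM length of *Pvt1* fell between 1457 and 2817 bases depending on the pool, which moves its TPM but not its CPM.

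**Figure D2:**
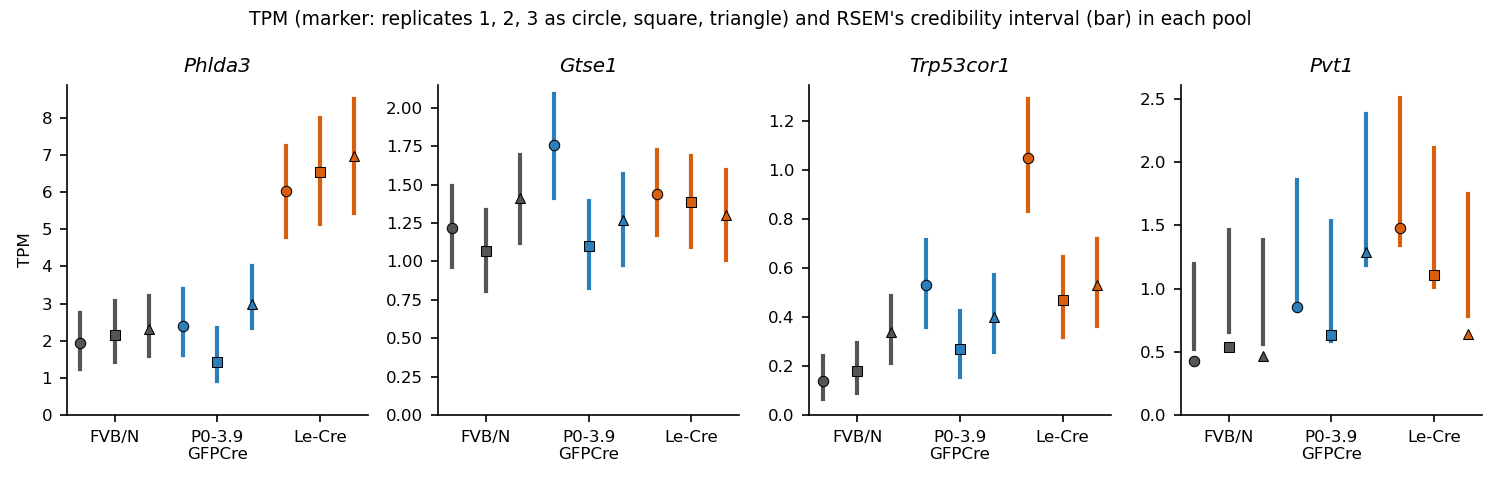
TPM (y axis, linear, from 0) of the 4 genes of lowest level in each pool, with the credibility interval that RSEM gives for it as a bar. The *Le-Cre* intervals of *Phlda3* start at 4.80 TPM or higher and those of the other lines end at 4.01 TPM or lower, and for *Pvt1* the TPM lies at or under the lower end of several intervals.

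RSEM also gave a credibility interval for each TPM, whose level is not stated in the tables and which covers the assignment and number of reads but not the spread between pools. *Phlda3* was the one gene of 10 whose *Le-Cre* intervals were apart from those of the other lines. Its lowest *Le-Cre* bound was 4.80 TPM, against highest bounds of 3.21 TPM in *FVB/N* and 4.01 TPM in *P0-3.9GFPCre*. Between *P0-3.9GFPCre* and *FVB/N*, 0 of 10 genes had all intervals apart. The share of all genes with intervals apart was not computed, so nothing is read from these counts.

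Across the *P0-3.9GFPCre* and *FVB/N* lenses, 0 of the 10 genes passed the cutoff, a change of 1.5-fold or more together with an edgeR adjusted p no higher than 0.05. The share of all 15557 tested genes that passed was 0.0% in this fit. Over all genes, 11 passed by DESeq2 without a prior, 1 with a prior and 93 by edgeR with no filter on low counts. When 1 pool was left out, the count was at most 14, reached without *FVB/N* replicate 2. At an unadjusted p under 0.05 there were 0 of the 10 genes and 1060 of all tested genes by edgeR, and DESeq2 called 0 of the 10 with or without a prior on the fold changes. The fold change was positive on the log2 scale for 8 of 10 genes, with a median of 0.13 against 0.00 for all tested genes. That median was 0.05 without *P0-3.9GFPCre* replicate 3 and 0.02 with the Y-linked counts in the fit. This comparison shares its *FVB/N* pools with the one that led to the choice of genes. In the CPM values, 0 of 10 genes had *P0-3.9GFPCre* pools that were all above or all below those of *FVB/N*, against 6.02% of tested genes for above and 5.94% for below.

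For *Le-Cre* against *FVB/N*, 9 of 10 genes had a positive log2 fold change, with a median of 0.20 against −0.004 for all tested genes. The cutoff was passed by 0 of 10 genes and by 0.0643% of tested genes. All *Le-Cre* pools were above all *FVB/N* pools in CPM for 6 of 10 genes, namely *Trp53*, *Mdm2*, *Ccng1*, *Phlda3*, *Trp53cor1* and *Pvt1*, where 6.46% of tested genes showed this. Since these genes were chosen for this contrast, nothing is read from the counts. Between *Le-Cre* and *P0-3.9GFPCre*, 9 of 10 genes were positive (median 0.13) and 0 of 10 passed the cutoff, as did 0.0% of tested genes. The *Le-Cre* pools were above the *P0-3.9GFPCre* pools for *Mdm2*, *Ccng1* and *Phlda3*, 3 of 10 genes, against 6.74% of tested genes. In TPM this held for *Phlda3* alone.

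**Figure D3:**
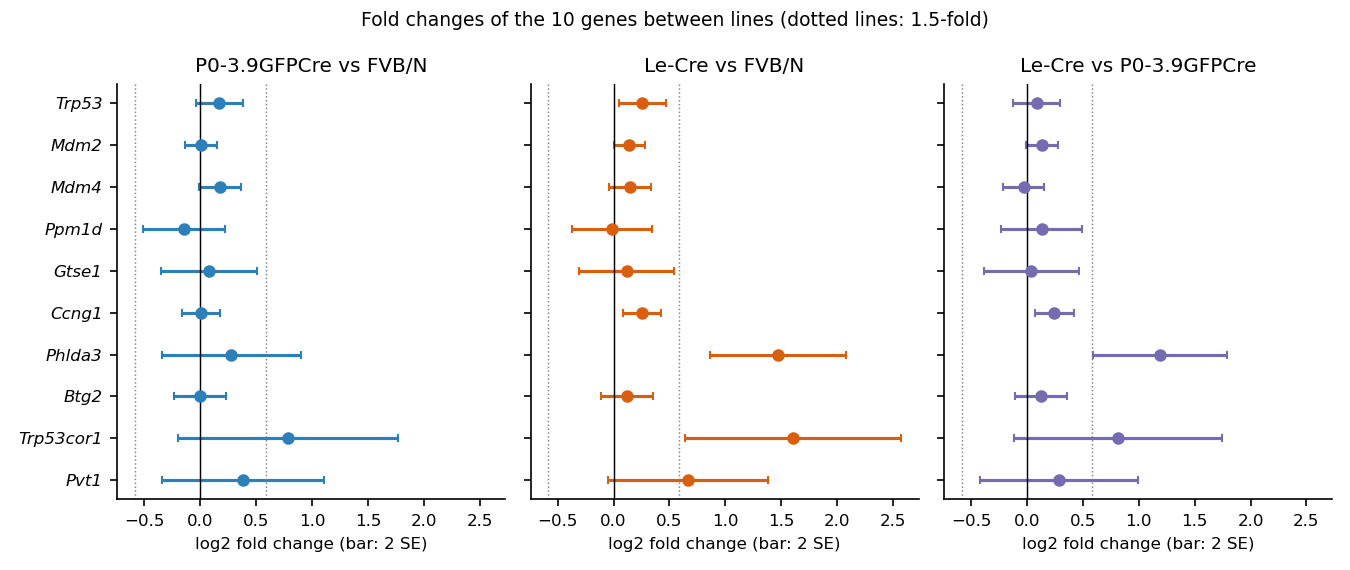
Log2 fold change (x axis) of each of the 10 genes in the 3 comparisons, as edgeR's estimate with bars of 2 standard errors, and dotted lines at 1.5-fold. In *P0-3.9GFPCre* against *FVB/N* every bar crosses 0, and in the *Le-Cre* comparisons *Phlda3*, at 1.47 and 1.19, is farthest from 0 relative to its bar.

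The length that RSEM reports for a gene is the mean length of its annotated isoforms weighted by their abundance, so it moves when the mixture of isoforms moves, and it was not used to choose the genes. *Gtse1*, *Btg2* and *Trp53cor1* have 1 isoform and a fixed length. *Mdm4*, which is known to be controlled by alternative splicing and has 14 isoforms here, had lengths of 3651, 3635 and 3836 bases in *FVB/N*, 3949, 4251 and 4533 bases in *P0-3.9GFPCre* and 4409, 4018 and 4319 bases in *Le-Cre*. All pools of both transgenic lines were longer than all *FVB/N* pools, by 537 bases in the mean of *P0-3.9GFPCre* and 541 bases in that of *Le-Cre*. The exact two-sided permutation test gave p = 0.1 for each, which is the smallest p that 3 pools against 3 allow, and 0.7 after Benjamini-Hochberg adjustment over 14 tests. The comparisons share the *FVB/N* pools. *Mdm4* was the one gene of 7 with more than 1 length whose groups did not overlap. Over all 10451 genes with more than 1 length, 4.38% were longer in every *P0-3.9GFPCre* pool than in every *FVB/N* pool, 4.58% in every *Le-Cre* pool, and 0.957% in both lines. Of the last, 29 genes were longer by at least 500 bases in the mean of the transgenic pools. Genes shorter in every transgenic pool were not counted, so these shares leave out the other direction in which groups may not overlap. Of the 51-base stretches of *Mdm4*, 7.11% also occur elsewhere, mostly in the pseudogene *Mdm4-ps*, whose count was at most 1.89% of that of *Mdm4*.

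**Figure D4:**
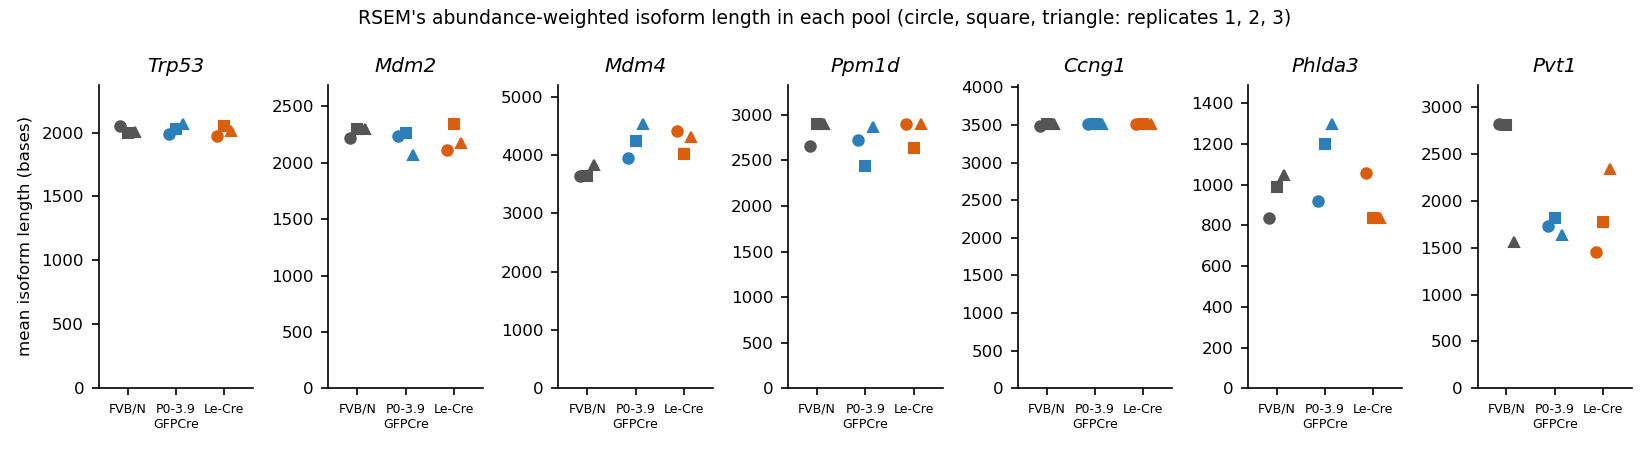
Abundance-weighted isoform length in bases (y axis, linear, from 0) of the 7 genes with more than 1 length, by pool. For *Mdm4* the *FVB/N* pools lie between 3635 and 3836 bases and all transgenic pools between 3949 and 4533 bases, whereas for the other genes the lines overlap.

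Replicate error differed among the 10 genes. The coefficient of variation of TPM within *FVB/N* ran from 0.67% for *Mdm2* to 48.1% for *Trp53cor1*. In *P0-3.9GFPCre* it was highest for *Pvt1* (36.4%), *Phlda3* (34.9%) and *Trp53cor1* (32.5%), and in *Le-Cre* for *Trp53cor1* (46.7%) and *Pvt1* (39.1%). *Phlda3* in *Le-Cre* varied by 7.38%. In *P0-3.9GFPCre* the intervals of 2 standard errors reached 1.77 for *Trp53cor1*, 1.11 for *Pvt1* and 0.90 for *Phlda3*, and a 1.5-fold rise lies within these 3 but not within those of the other genes.

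The genes around p53 were taken from 5 further lists, which together hold the other p53 response genes, regulators upstream of p53, relatives of the 10 genes, G2 and M phase genes and immediate early genes. Of 29 other p53 response genes, 27 were tested. In *Le-Cre* against *FVB/N*, 2 rose past the cutoff and 0 fell, 21 were positive and the median log2 fold change was 0.31. Of all tested genes, 0.0643% passed the cutoff and 49.0% were positive. The rise of p53 targets in these pools partly led to the choice of genes, so these counts are no test. The 2 past the cutoff were *Cdkn1a* and *Trp53inp1*. Both also passed by DESeq2 with and without a prior, and with the other normalizations and filters. The same held with only the pools of the compared lines, and when any 1 *P0-3.9GFPCre* pool was left out. Neither passed without any 1 of the *FVB/N* or *Le-Cre* pools or with the Y-linked counts in the fit. Their log2 fold changes stayed at 2.70 to 3.25 and 0.91 to 1.19 in the fits where neither passed. *Trp53inp1* also missed the cutoff with the replicate number as a block. These passes and misses rest on the rise that partly led to the choice of genes. They describe how the calls depend on the fit and are no test. *Cdkn1a* went from 1.23 ± 0.0527 CPM in *FVB/N* through 3.66 ± 2.12 in *P0-3.9GFPCre* to 11.4 ± 0.384 CPM in *Le-Cre*, and *Trp53inp1*, a p53-inducible nuclear protein, from 5.78 ± 0.406 through 7.17 ± 0.664 to 11.9 ± 1.84 CPM. In *P0-3.9GFPCre*, 0 of 27 passed, 18 were positive and the median was 0.16. There *Cdkn1a* was at 1.58 ± 0.37 (edgeR adjusted p = 0.59), and its pools were all above those of *FVB/N*. *Ddit4l*, an inhibitor of mTOR signalling, had log2 fold changes of 1.47 ± 0.57 and 2.6 ± 0.56 in the 2 lines and did not pass by edgeR. With DESeq2 and the same cutoff, the paper lists *Ddit4l* and *Phlda3* among the genes deregulated in *Le-Cre* lenses.

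Regulators that act on p53, such as its kinases, acetylases and deubiquitinases, gave 0 calls among 23 tested of 24, with medians of −0.06 in *P0-3.9GFPCre* and 0.01 in *Le-Cre*. The values farthest from 0 in *Le-Cre* were those of the kinase gene *Dyrk2* (−0.22 ± 0.10) and of *Trp53bp1* (−0.17 ± 0.07) and *Trp53bp2* (−0.16 ± 0.10), which encode p53-binding proteins. In *P0-3.9GFPCre* the values farthest from 0 were those of the deubiquitinase gene *Usp11* (−0.80 ± 0.20, edgeR adjusted p = 0.59) and the ribosomal protein gene *Rpl5* (0.84 ± 0.35, edgeR adjusted p = 0.689). The paper, with DESeq2 and the same cutoff, reports *Usp11* as downregulated in *P0-3.9GFPCre* lenses. *Cdkn2a*, which encodes the MDM2 inhibitor ARF, was not above the filter, and its mean was 0.0574 CPM in *FVB/N* and 0 in *Le-Cre*. Among relatives of the 10 genes, 10 of 13 were tested and 0 passed. *Btg1*, the relative of *Btg2*, had 133 ± 7.09, 118 ± 5.34 and 104 ± 3.196 CPM in *FVB/N*, *P0-3.9GFPCre* and *Le-Cre*, with pools that did not overlap between any lines (log2 fold change −0.35 ± 0.06 in *Le-Cre*, edgeR adjusted p = 0.101). *Tob2* of the same family was at −0.32 ± 0.10 and −0.22 ± 0.10 in *P0-3.9GFPCre* and *Le-Cre*, whereas *Btg2* was at −0.01 and 0.12. *Btg3*, with 0.45 to 4.6 CPM in *FVB/N*, was at 0.64 ± 0.56 in *Le-Cre*. The p53 relatives *Trp63* and *Trp73* were not tested, and *Trp63* was at 0 in every pool.

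The 18 G2 and M phase genes were compared because *Gtse1* belongs to that phase. By edgeR 0 of the 18 passed in either line, though 17 were positive in *Le-Cre* (median 0.25) and 16 in *P0-3.9GFPCre* (median 0.20), where 49.0% and 50.0% of all tested genes were positive. *Bub1* (0.59 ± 0.21 in *Le-Cre*), *Cdc25c* (0.56 ± 0.23) and *Cdc20* (0.40 ± 0.22) differed most, and *Gtse1* at 0.12 was below the median of the list. Of the immediate early genes, to which *Btg2* also belongs, 8 of 10 were tested and 0 passed, with a median of 0.54 in *Le-Cre*. The median of all tested genes was −0.004, and 6 of the 8 were positive. *Egr1* (0.92 ± 0.34), *Zfp36* (0.66 ± 0.25) and *Junb* (0.62 ± 0.27) were each above the *Btg2* value of 0.12. *Jun* (−0.17 ± 0.12) and *Dusp1* (−0.09 ± 0.08) were negative and below it. *Myc*, the neighbour of *Pvt1*, was at 3.79, 4.28 and 4.17 CPM in the 3 lines, a log2 fold change of 0.14 ± 0.17 in *Le-Cre*.

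**Figure D5:**
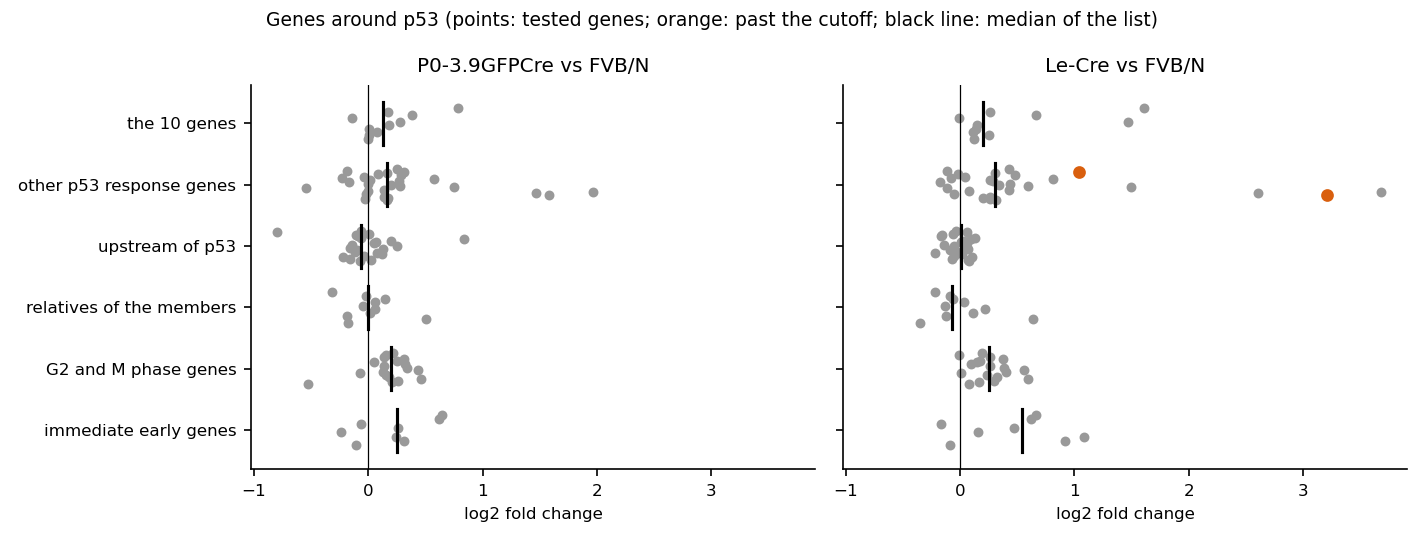
Log2 fold change (x axis) of the tested genes of each list (y axis) against *FVB/N*, with a black line at the median of the list and genes past the cutoff in orange. *Cdkn1a* and *Trp53inp1* in *Le-Cre* are the orange points, and the 10 genes have medians of 0.13 and 0.20 in the 2 lines.

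The gene most like each of the 10 was sought among 96 candidates, the 10 genes and the lists, by Pearson's r of log2 CPM over the 9 pools. These values share libraries and the differences between lines. Each r is also the largest of 96 over only 9 pools, which can be high for unrelated genes, so the values are descriptive. *Phlda3* was most like *Cdkn1a* (r = 0.920), *Trp53cor1* most like *Cenpf*, a kinetochore gene (r = 0.938), and *Pvt1* most like *Plk2* (r = 0.870). *Trp53* was most like *Trp53inp1* (r = 0.740), *Mdm2* like *Sesn2* (r = 0.858), *Mdm4* like the acetylase gene *Kat5* (r = 0.880) and *Btg2* like *Apaf1* (r = 0.743). The cell cycle genes *Kif20a*, *Ube2c* and *Top2a* were the closest to *Ppm1d* (r = 0.812), *Gtse1* (r = 0.822) and *Ccng1* (r = 0.808). None of the 10 was most like another of the 10, which are a small part of the candidates.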

How the data were processed

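RNA-Seq was analysed for 9 pools, 3 per line, and the sample titles gave the line and number of each pool (1 description, of *FVB/N* replicate 3, carries another number). The authors prepared polyadenylated RNA for single-end sequencing, trimmed the reads with Trimmomatic 0.36, used GSNAP for mapping to GRCm38 and RSEM 1.3.0 for quantification (versions from the submitters' processing notes). The deposited tables hold expected counts, which are not normalized and need not be whole, and TPM, which the authors' RSEM run scaled for length and library size, together with lengths and credibility bounds. Of 47729 identifiers, 47224 matched GENCODE M21, from which coordinates were taken.

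Expected counts were rounded and tested in R 4.3.3 with edgeR 4.0.16 (TMM, filterByExpr, glmQLFit and glmQLFTest, one coefficient per line over all 9 pools, Benjamini-Hochberg adjustment over 15557 genes). The submitters' processing notes name DESeq2 1.10.1, whereas DESeq2 1.42.0 served here as one alternative. The fit was run on simulated counts with known changes in *Le-Cre*. Against *FVB/N* it called 63% of 2-fold and 74% of 4-fold changes, with 5 false among 142 calls. A gene that did not pass may therefore still differ. Each standard error was taken from the fold change and the F statistic of its test. Precision is limited by 3 pools per line and, for low genes, by counts.

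The 10 genes and all lists were chosen with earlier results of these data known. Besides the 10, genes were named when past the cutoff in any comparison, when among the 3 of a list with the largest change in *Le-Cre* (mean of at least 1 CPM), as neighbours, or as the most alike gene. *Cdkn2a*, *Trp63*, *Trp73*, *Usp11*, *Rpl5*, *Jun* and *Dusp1* were named after their values were seen. Alternatives changed the normalization, test, filter, pools and covariates.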

Additional observations from a re-analysis of the deposited data

How the results depend on the processing

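In *P0-3.9GFPCre* against *FVB/N*, 0 of the 10 genes passed the cutoff under every alternative and without any 1 pool. Against *FVB/N*, *Le-Cre* had 1 gene past it, *Phlda3*, with DESeq2 without a prior and with no filter on low counts, and without the filter *Phlda3* was also the 1 gene past it between *Le-Cre* and *P0-3.9GFPCre*. Both comparisons use the pools whose values led to the choice of genes, so these counts are no test. Without any 1 pool the count was 0 in both. Several small changes in *P0-3.9GFPCre* took the other sign. *Btg2* was at 0.0008 with upper quartile scaling, and with the Y-linked counts in the fit *Mdm2* was at −0.0261, *Ccng1* at −0.0093 and *Phlda3* at −0.0831. Leaving out 1 pool gave −0.0165 to 0.045 for *Mdm2*, −0.1104 to 0.2119 for *Gtse1*, −0.0647 to 0.0725 for *Ccng1*, −0.1548 to 0.5032 for *Phlda3* and −0.0956 to 0.0953 for *Btg2*. The cause was not tested. Over all genes, the count past the cutoff in *Le-Cre* against *FVB/N* was 10, and it was 49 and 8 by DESeq2 without and with a prior, 131 with no filter and 0 with the Y-linked counts in the fit. It was 0 without *FVB/N* replicate 2 or any 1 *Le-Cre* pool and 1 without *FVB/N* replicate 1 or 3.

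The same replicate numbers occur in all lines, though the description of *FVB/N* replicate 3 carries another number than its title. Residuals of pools with the same number had correlations of −0.15 to 0.143 (mean 0.031, 9 pairs), against −0.214 to 0.157 for other pairs (mean −0.0155, 18 pairs), so the numbers were not taken to pair the pools. With the replicate number as a block, 0 of the 10 genes passed in each comparison, *Btg2* in *P0-3.9GFPCre* was at 0.0039, and 2 genes of all those tested passed in *Le-Cre* against *FVB/N*. Low counts limit *Trp53cor1*, *Pvt1*, *Phlda3* and *Gtse1*. The normal prior of DESeq2 shrank the *Le-Cre* change of *Phlda3* to 0.53 and that of *Trp53cor1* to 0.28.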
